A study of Mus musculus with 8 samples.

Results

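Potassium channel genes code for the pore subunits, silent subunits and auxiliary subunits of the membrane channels that conduct potassium ions, and they were compared here between fibroblasts of the mouse colon without and with CD90 on the surface. A gene was taken as a member where the array's annotation named it alone for a transcript cluster and its symbol began with Kcn, further letters and a digit. This gave 92 genes of 30702 named genes, each with 1 cluster. Of the 92, 3 (Kcnq1ot1, Kcnd3os and Kcnmb4os2) are non-coding transcripts named after a channel gene. The other members are named as subunits of potassium channels by their symbols, by which they were also chosen.

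Potassium channels set the resting membrane potential and end electrical excitation by letting potassium leave the cell. Their pore subunits fall into classes that open with voltage (Kv), with intracellular calcium or sodium, that pass current better inward than outward (Kir), or that leak and carry 2 pore domains per subunit (K2P); auxiliary subunits change gating or transport to the membrane. In the gut wall, fibroblast-like cells, interstitial cells of Cajal and smooth muscle are electrically coupled, and the calcium-activated channel of Kcnn3 is known from the PDGFRA-positive fibroblast-like cells of the muscle layer. Kv1 channels are best known from axons and glia.

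RNA was measured on 8 Affymetrix MTA-1_0 arrays, 1 per sample, from C57BL/6J mice described as wild-type. Cells of the colon had been sorted as Epcam-CD45-CD31-gp38+ and then as CD90- (samples 13, 15, 17 and 19, numbered as in their titles) or CD90+ (samples 14, 16, 18 and 20). Neither an allele, an agent nor an age is named for any group. Both populations came from 4 mice, but which samples share one is not labelled, and p-values therefore reflect only how samples vary. The populations are sorted by surface proteins and can hold several cell types. Values are log2 expression as deposited, for single samples or as mean ± SD with n = 4 per population, and a difference is CD90+ minus CD90-. The deposited scale runs above the 16 of a 16-bit scan, so differences are differences on this scale and not exact ratios of RNA amounts.

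Thy1, which codes for CD90, was at 5.46, 5.54, 5.57 and 5.53 in CD90- samples 13, 15, 17 and 19 and at 7.03, 8.11, 7.69 and 7.94 in CD90+ samples 14, 16, 18 and 20, with no overlap (p = 0.0286 by a two-sided exact permutation test over 70 assignments, the lowest value possible). All 8 measured genes of the fibroblast list (Col1a1 and Dcn among them) lay above the negative controls in both populations. Epithelial genes were detected despite the gate, with list means of 7.08 to 9.29 in CD90- and 7.5 to 9.22 in CD90+ samples. Of the leukocyte genes 3 of 4 tested were called higher, of the mesothelium genes 1 of 2, and of the endothelium genes 1 of 5 lower. Samples 13 and 14 stood apart. Xist, the RNA of X inactivation, reached 16.16 and 16.27 there, whereas the other 6 samples ranged from 5.89 to 9.32. Uty, a gene of the Y chromosome, was at 5.49 and 5.56 in samples 13 and 14 and at 9.65 to 10.06 in the others. Samples 13 and 14 thus had the pattern of female cells, sample 14 as the only CD90+ sample. The part of sex in the values of these samples was not tested, and results were also computed without samples 13 and 14. In bulk samples such as these, fewer cells of a type and less RNA per cell cannot be told apart.

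Levels were read against the array's negative control rows, whose values had a median of 6.82 over CD90- and 6.65 over CD90+ samples. A gene is called bright here where its mean lay above that median in at least 1 population, and dim where both means lay below it. Of the 92 potassium channel genes, 19 were bright, or 20.7%, against 40.9% of all named genes, and 73 were dim. Only 7 were bright in both populations, namely Kcnn3, Kcnip3, Kcnq1ot1, Kcnmb1, Kcna5, Kcnd1 and Kcne1l. A mean below the controls is a caution about the size of a difference and does not show that the transcript was absent.

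Genes were tested where the cluster reached 5.36, the median of all cluster values, in at least 4 samples. This left 37 of the 92 members, or 40.2%, against 56.1% of all named genes. In limma's test with Benjamini-Hochberg adjustment over 17221 genes, called at an adjusted p under 0.05, 12 members were higher in CD90+ cells and 7 were lower. These are 32.4% and 18.9% of the tested members, beside 14.0% called higher and 15.7% called lower over all genes tested. The median difference was 0.08 over tested members and -0.014 over all genes tested. The populations did not overlap in 16 tested members (43.2%), beside 32.3% of all genes tested. Of the 19 bright members 8 were called higher and 6 lower, beside 16.0% and 18.9% of all bright genes tested. A gene can be bright through its higher population alone, so a difference can itself make a gene bright: 12 of the 14 called bright members were bright in 1 population, and of the 7 bright in both, Kcnip3 and Kcnq1ot1 were called. These shares are a description only. These counts describe the members that passed the filter, and Kcna4, Kcna6 and Kcng4 passed it through 1 population alone. Without sample 20 the number called lower was 4 in place of 7.

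**Figure D1:**
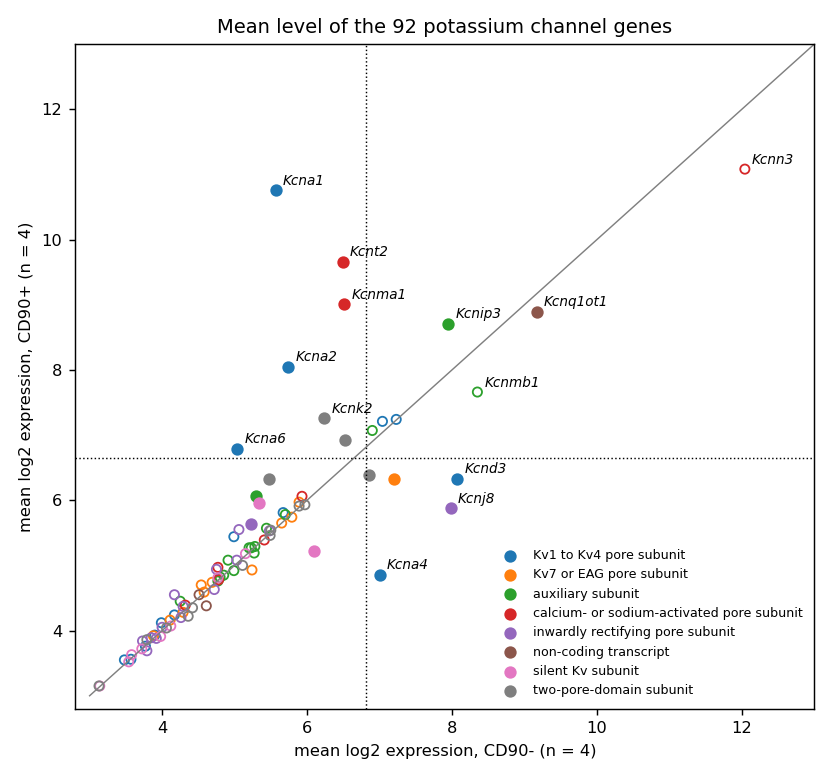
Mean log2 expression of each of the 92 potassium channel genes in CD90- (horizontal) and CD90+ samples (vertical), 4 samples each, coloured by channel class; filled points were called different, and dotted lines mark the negative control medians of 6.82 and 6.65. Most members lie in the lower left, below both lines, and Kcna1 lies farthest from the diagonal.

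Calls were spread over the classes. Of 15 Kv1 to Kv4 pore genes, 8 were tested, 3 of them called higher and 2 lower. Of 8 calcium- or sodium-activated pore genes, 5 were tested, of which 2 were called higher and 3 were not called. Of 14 K2P genes, 8 were tested, 3 called higher and 1 lower. Of 15 Kir genes only 3 passed the filter, with 1 call in each direction. Of 11 Kv7 and EAG genes, 4 were tested and 1 was lower. Of 10 silent Kv subunits, 2 were tested and each direction had 1 call, and of 16 auxiliary subunits, 6 were tested and 2 were higher. Of the called members 9 differed by at least 1 on the log2 scale, and 5 of these were Kv1 to Kv4 genes. The share of all genes tested that were called at that size is not given here. Whether these 2 counts are unusual therefore cannot be read from them.

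**Figure D2:**
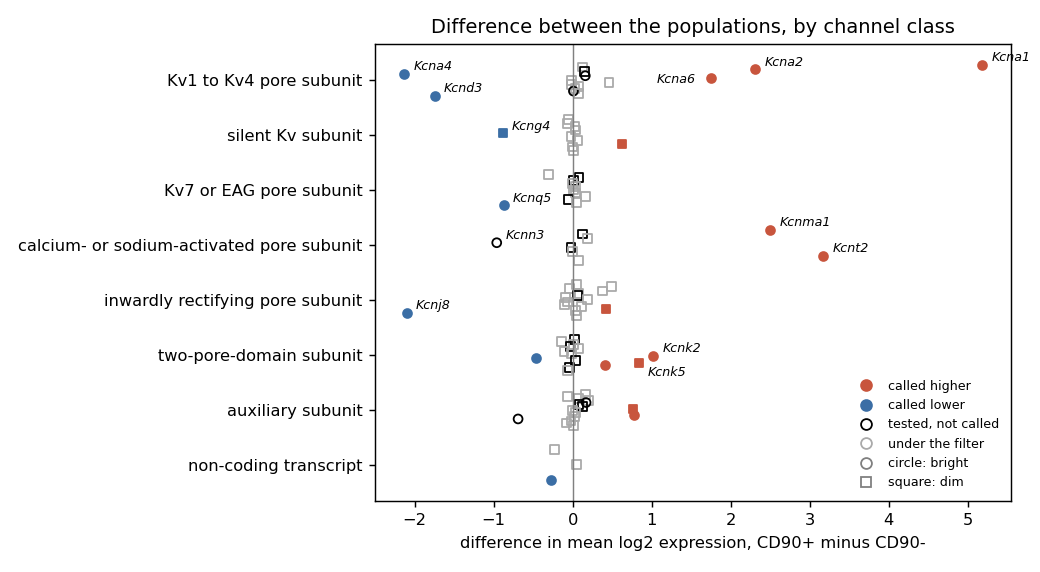
Difference in mean log2 expression (CD90+ minus CD90-, horizontal axis) of each potassium channel gene, in rows by class; red points were called higher, blue ones lower, black outlines were tested and not called, grey outlines lay under the filter, circles are bright and squares dim. The called members run from -2.13 for Kcna4 to 5.18 for Kcna1.

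As sequence context for the largest differences, the 250 bases before the annotated start were read for the bright called members that differed by over 2 (log2). RefSeq's promoter table (build GRCm38.p6) gave 1 window for 5 of 6 such genes, the other being Kcna1. Each is written 5′ to 3′ on the gene's strand. Capitals mark matches on either strand to GGGCGG, the core of a GC-rich promoter element. The core promoter motif TATAAA was searched on both strands as well. Kcnt2, Kcnma1 and Kcna2 rose and Kcnj8 and Kcna4 fell. The windows are chr1:140245468-140245717 (+) for Kcnt2, chr14:24004206-24004455 (-) for Kcnma1, chr3:107101317-107101566 (+) for Kcna2, chr6:142571615-142571864 (-) for Kcnj8 and chr2:107290339-107290588 (+) for Kcna4.
Kcnt2: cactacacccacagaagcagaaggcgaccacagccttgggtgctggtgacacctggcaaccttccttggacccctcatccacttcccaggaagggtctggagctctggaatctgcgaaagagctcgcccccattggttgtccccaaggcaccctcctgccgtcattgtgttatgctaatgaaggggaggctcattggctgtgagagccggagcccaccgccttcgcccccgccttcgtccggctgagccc
Kcnma1: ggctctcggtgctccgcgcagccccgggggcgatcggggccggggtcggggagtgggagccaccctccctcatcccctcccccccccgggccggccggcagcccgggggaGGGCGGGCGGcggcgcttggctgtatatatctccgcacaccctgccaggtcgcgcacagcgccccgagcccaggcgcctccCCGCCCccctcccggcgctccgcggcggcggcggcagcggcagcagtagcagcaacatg
Kcna2: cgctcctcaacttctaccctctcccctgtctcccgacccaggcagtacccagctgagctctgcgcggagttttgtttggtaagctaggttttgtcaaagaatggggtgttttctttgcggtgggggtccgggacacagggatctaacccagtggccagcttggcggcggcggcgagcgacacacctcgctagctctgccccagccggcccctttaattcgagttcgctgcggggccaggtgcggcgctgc
Kcnj8: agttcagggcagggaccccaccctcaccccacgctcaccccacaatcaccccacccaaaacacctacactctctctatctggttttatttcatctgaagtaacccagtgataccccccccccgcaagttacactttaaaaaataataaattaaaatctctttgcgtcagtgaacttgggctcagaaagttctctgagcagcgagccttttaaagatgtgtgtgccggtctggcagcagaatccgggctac
Kcna4: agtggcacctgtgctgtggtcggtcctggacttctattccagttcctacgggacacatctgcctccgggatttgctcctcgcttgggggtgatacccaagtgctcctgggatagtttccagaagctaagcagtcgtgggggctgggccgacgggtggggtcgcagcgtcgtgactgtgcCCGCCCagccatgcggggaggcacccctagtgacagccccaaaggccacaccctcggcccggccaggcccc

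TATAAA was in 0 of the 5 windows, beside 12.4% of all 32851 windows of this length in the table. GGGCGG was found at 3 places in the Kcnma1 window, 2 of which overlap, and at 1 in the Kcna4 window, beside 32.7% of all windows with at least 1 match. The windows held 10 (Kcnt2), 31 (Kcnma1), 18 (Kcna2), 6 (Kcnj8) and 14 (Kcna4) CG dinucleotides, beside a median of 6 over all windows. The members that rose and those that fell overlapped in this count. A match is only a run of letters, and no binding was measured.

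Among the Kv1 genes, which code for pore subunits of fast-opening voltage-gated channels, Kcna1, Kcna2 and Kcna6 rose and Kcna4 fell. Kcna1, a subunit known from axons, was at 5.89, 5.8, 5.25 and 5.35 in CD90- samples 13, 15, 17 and 19 and at 9.41, 11.71, 10.47 and 11.43 in CD90+ samples 14, 16, 18 and 20. Every CD90+ sample was above every CD90- sample, and sample 14 was the lowest of the CD90+ samples. Its mean rose from 5.57 ± 0.32, below the negative controls, to 10.76 ± 1.04 (difference 5.18, SE 0.46, limma adjusted p = 5.68e-05). Kcna2, which assembles with Kcna1 into mixed channels, was at 5.93, 5.68, 5.8 and 5.56 in CD90- samples and at 6.89, 8.58, 8.08 and 8.67 in CD90+ samples 14, 16, 18 and 20. Here too sample 14 was the lowest of its population and the groups did not overlap (difference 2.31, limma adjusted p = 0.00129). Kcna6 was flat at 5.07, 5.03, 5.03 and 5.03 in CD90- samples, under the filter, and at 6.24, 7.51, 6.59 and 6.82 in CD90+ samples 14, 16, 18 and 20 (difference 1.75, limma adjusted p = 0.000549). Since its CD90- values all lay under the filter, this gene could be tested only because of its CD90+ level.

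Kcna4, a Kv1 subunit that inactivates quickly, went the other way. It was at 8.79, 5.68, 6.95 and 6.58 in CD90- samples 13, 15, 17 and 19 and at 4.83, 5.03, 4.95 and 4.64 in CD90+ samples 14, 16, 18 and 20. The populations did not overlap, but the CD90- samples were spread widely, with sample 13 the highest. The mean fell from 7.0 ± 1.31 to 4.86 ± 0.17 (difference -2.13, limma adjusted p = 0.0192; 0.0515 without sample 20). The mean of 3 measured genes of interstitial cells of Cajal (Kit, Ano1 and Thbs4) was also highest in sample 13, at 9.97. It was 8.09 to 8.22 in the other CD90- samples and 6.89 to 7.42 in CD90+ samples. Kit (10.56) and Ano1 (11.37) were highest in sample 13, but Thbs4 (7.99) was not. All 3 lay above the negative controls in both populations and 1, the chloride channel gene Ano1, fell. Among CD90- samples the epithelium and smooth muscle means were also highest in sample 13, at 9.29 and 10.06. The part of these cell types in the Kcna4 result was not tested.

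Other Kv1 genes gave small differences. In RefSeq's order of protein-coding genes Kcna1 lies between Kcna5 and Kcna6. Kcna5 was at 7.04 ± 0.13 and 7.21 ± 0.11 (difference 0.16, SE 0.089, limma adjusted p = 0.211). Of these 3 adjacent genes, Kcna1 and Kcna6 rose and Kcna5 was tested but not called. The neighbours of Kcna2 are Kcna3, at 5.67 ± 0.14 and 5.81 ± 0.25 (limma adjusted p = 0.432), and Kcna10, under the filter at 3.99 ± 0.066 and 4.12 ± 0.12. Kcna7 was also under the filter.

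Genes of enteric glia were higher in the same samples as Kcna1, Kcna2 and Kcna6. Of the 10 listed, 8 were measured, all 8 were called higher, and 1 lay above the negative controls in CD90- and 6 in CD90+ samples. The mean of the 8 was 5.98 to 6.26 over CD90- samples and 7.2, 8.33, 7.66 and 8.01 in CD90+ samples 14, 16, 18 and 20. Cdh19, a cadherin of glia, was at 8.97, 11.74, 10.07 and 10.96 in those samples, and Sox10, the transcription factor that defines glia, at 6.48, 7.18, 6.91 and 6.9. Sample 14 was thus the lowest CD90+ sample for Kcna1, Kcna2, Kcna6, the glia mean, Cdh19, Sox10 and Thy1. Sample 16 was the highest for all of these but Kcna2. Not every glia gene had this order: Foxd3 was highest in sample 14 (5.88) and Gfap in sample 20 (6.71). Erbb3 overlapped between the populations, at 7.14 in CD90- sample 13 and 7.1 in CD90+ sample 14. The order with sample 14 lowest and sample 16 highest was also not particular to glia genes. The endothelium mean was at 5.27, 6.07, 5.83 and 5.98 in samples 14, 16, 18 and 20. Leukocyte and epithelium means were also lowest in sample 14, at 5.77 and 7.5, but highest in sample 20. Smooth muscle, mesothelium and fibroblast means were instead highest in sample 14, at 10.38, 5.67 and 15.69. Of 10 enteric neuron genes 9 were measured and 3 tested, all called higher (Uchl1, Ret and Stmn2); Elavl4, Tubb3, Snap25, Prph, Chat and Nos1 lay under the filter. The neuron list's mean was 4.94 to 5.0 in CD90- and 5.64 to 5.72 in CD90+ samples. Within it Stmn2 rose from 6.39 ± 0.26 to 11.08 ± 0.51 (difference 4.7, limma adjusted p = 2.72e-06). Among CD90+ samples Stmn2 was lowest in sample 14 (10.54) and Uchl1 in sample 18 (5.88), while Ret was highest in sample 14 (6.27). The part of glia or neuron RNA in the Kv1 results was not tested. Without sample 14 Kcna1, Kcna2 and Kcna6 kept their calls.

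**Figure D3:**
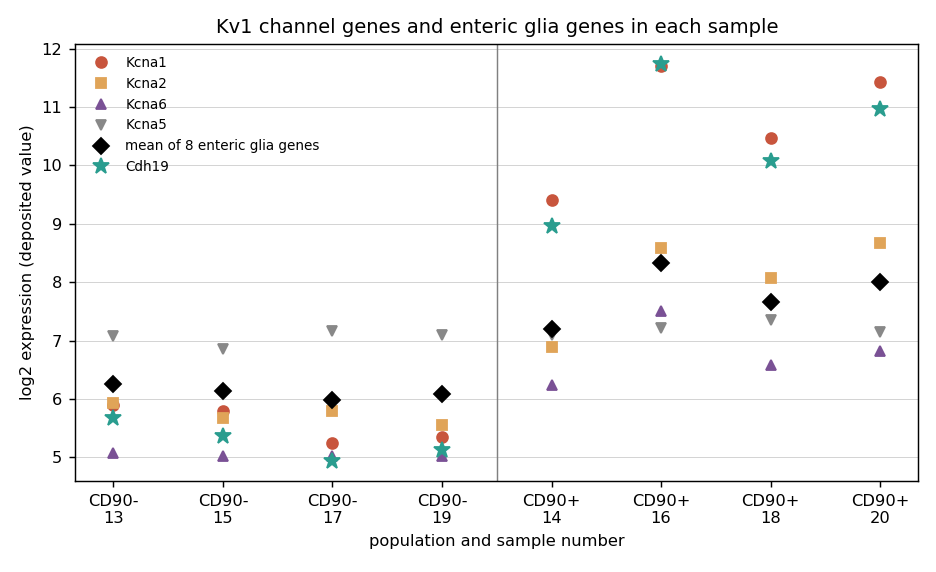
Log2 expression in each sample (horizontal axis) of 4 Kv1 genes, of the glial cadherin gene Cdh19 and of the mean over 8 enteric glia genes. In the CD90+ samples Kcna1, Kcna2, Kcna6, Cdh19 and the glia mean are all lowest in sample 14, while Kcna5 stays between 6.86 and 7.36 in all 8 samples.

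Kv4 channels carry the transient outward current, and they assemble with KChIP proteins (Kcnip genes) and with DPP6 or DPP10. Kcnd3, a Kv4 pore gene, was at 7.97, 7.92, 8.32 and 8.06 in CD90- samples 13, 15, 17 and 19 and at 6.59, 6.2, 6.18 and 6.33 in CD90+ samples 14, 16, 18 and 20. It was lower in every CD90+ sample with little spread in either population, and its mean fell from 8.07 ± 0.18 to 6.33 ± 0.19 (difference -1.74, limma adjusted p = 1.19e-05). The partner gene Dpp6 fell as well, from 6.26 ± 0.25 to 5.32 ± 0.12, both below the controls (difference -0.94, limma adjusted p = 0.000572). Kcnip3, whose protein binds Kv4 channels and is also a calcium-dependent transcriptional repressor, rose. It was at 7.73, 7.98, 7.99 and 8.09 in CD90- samples and at 8.98, 8.73, 8.65 and 8.49 in CD90+ samples 14, 16, 18 and 20. The groups did not overlap, and both means, 7.95 ± 0.15 and 8.71 ± 0.2, lay above the controls (difference 0.77, limma adjusted p = 0.00134). Kcnd1, another Kv4 pore gene, was bright at 7.23 ± 0.031 and 7.24 ± 0.1 (difference 0.01, SE 0.066, limma adjusted p = 0.896), and Kcnd2, Kcnip1, Kcnip2 and Kcnip4 lay under the filter.

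Among the silent subunits, which form no channel alone but change Kv2 channels, both tested genes were dim and were called. Kcns3 rose by 0.62 from 5.34 ± 0.21, and Kcng4 fell from 6.1 ± 0.14 to 5.22 ± 0.15, which lies under the filter (limma adjusted p = 0.00329 and 0.000218). Kcnb2, the measured Kv2 gene, was under the filter at 4.99 ± 0.24 and 5.44 ± 0.53. All 3 measured Kv3 genes (Kcnc1, Kcnc2 and Kcnc4) lay under it too.

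Kv7 channels open slowly near the resting potential, and KCNE proteins are among their partners. Kcnq5, the bright member of this class, was at 7.73, 6.95, 7.05 and 7.07 in CD90- samples 13, 15, 17 and 19 and at 6.46, 6.68, 5.99 and 6.19 in CD90+ samples 14, 16, 18 and 20. Sample 13 was the highest, the populations did not overlap, and the mean fell from 7.2 ± 0.36 to 6.33 ± 0.3 (difference -0.87, limma adjusted p = 0.0116). Kcnq1 was dim at 5.79 ± 0.21 and 5.74 ± 0.19 (limma adjusted p = 0.811). Kcne4, an inhibitory partner of the Kcnq1 channel, was dim in both populations and rose from 5.3 ± 0.2 to 6.06 ± 0.28 (limma adjusted p = 0.00575). Kcne1l was at 6.9 ± 0.16 and 7.07 ± 0.15 (limma adjusted p = 0.251), and the tested genes Kcne2 and Kcne3 gave limma adjusted p of 0.777 and 0.556. The EAG class, which holds the cardiac repolarisation gene Kcnh2, had 2 tested members of 8 and 0 calls in limma's test (Kcnh2 and Kcnh3 at unadjusted p of 0.734 and 0.916).

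The sodium-activated and large-conductance calcium-activated channels gave the next largest rises. Kcnt2, a pore subunit opened by intracellular sodium, was at 7.11, 5.94, 6.68 and 6.23 in CD90- samples 13, 15, 17 and 19 and at 10.1, 9.68, 9.41 and 9.45 in CD90+ samples 14, 16, 18 and 20. Every CD90+ sample lay above every CD90- sample, and samples 13 and 14 were the highest of their populations (difference 3.17, SE 0.26, limma adjusted p = 3.41e-05). Kcnma1, the pore subunit of the large-conductance (BK) channel, was at 6.46, 5.84, 7.04 and 6.7 in CD90- samples and at 9.48, 8.55, 9.19 and 8.83 in CD90+ samples 14, 16, 18 and 20. Again there was no overlap, and the mean rose from 6.51 ± 0.51, below the controls, to 9.01 ± 0.41 (difference 2.5, limma adjusted p = 0.000201). Neither of the BK helper genes tested was called higher. Lrrc55, which codes for a gamma subunit that eases BK opening, was at 10.44, 10.94, 10.26 and 10.62 in CD90- and at 7.08, 6.91, 7.69 and 7.33 in CD90+ samples, and so fell (difference -3.31, limma adjusted p = 4.85e-06). Kcnmb1, the beta subunit known from smooth muscle, was at 8.42, 8.14, 8.46 and 8.37 in CD90- samples and at 8.56, 7.43, 7.34 and 7.3 in CD90+ samples 14, 16, 18 and 20. It was lower in 3 CD90+ samples and not in sample 14, and it was not called (difference -0.69, limma adjusted p = 0.0828). Without sample 14 the difference was -0.99 (limma adjusted p = 0.000147). Kcnmb2, Kcnmb3 and Kcnmb4 lay under the filter.

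Kcnn3, the small-conductance calcium-activated channel gene, was bright in all samples and showed the same exception. It was at 12.61, 12.04, 11.65 and 11.85 in CD90- samples 13, 15, 17 and 19 and at 12.43, 10.36, 10.81 and 10.72 in CD90+ samples 14, 16, 18 and 20. Samples 16, 18 and 20 lay below all CD90- samples and sample 14 lay among them. Without a block the gene was not called (difference -0.96, SE 0.42, limma adjusted p = 0.125). Without sample 14 the difference was -1.41 (limma adjusted p = 0.00253), and without samples 13 and 14 it was -1.22 (limma adjusted p = 0.000893). With all 8 samples and consecutive title numbers as a block, a pairing that no label states, Kcnn3 was called lower (limma adjusted p = 0.0261). Smooth muscle genes were high in the same sample: the mean of the 9 measured, of which 4 were called higher and 4 lower, was 10.38 in sample 14, 9.15 to 9.19 in the other CD90+ samples and 9.42 to 10.06 in CD90- samples. In CD90- and CD90+ samples 6 and 8 of the 9 lay above the controls. Acta2, the smooth muscle actin gene, was at 15.13 in sample 14, 13.28 to 13.63 in samples 16, 18 and 20, and 15.89 to 16.13 in CD90- samples. Acta2, Tagln, Smtn and Synpo2 thus lay below all CD90- samples in sample 14. Myh11, Actg2, Des, Cnn1 and Lmod1 were instead higher in sample 14 than in any other sample (12.58, 11.79, 7.48, 9.65 and 6.68). The part of smooth muscle RNA in the Kcnn3, Kcnmb1 and Kcnma1 values was not tested. Pdgfra, the marker of the fibroblast-like cells known for Kcnn3, was listed but was not among the genes measured here. Kcnn1 and Kcnn4 were dim and not called (limma adjusted p = 0.139 and 0.919).

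Of the 8 bright members called higher, 5 (Kcnt2, Kcnma1, Kcnip3, Kcnk2 and Kcnk6) had their highest CD90+ value in sample 14, and 3 (Kcna1, Kcna2 and Kcna6) had their lowest there. The members that rose thus did not follow one order over the CD90+ samples. Each of the 8 but Kcnk6 was called under all alternatives run for it.

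**Figure D4:**
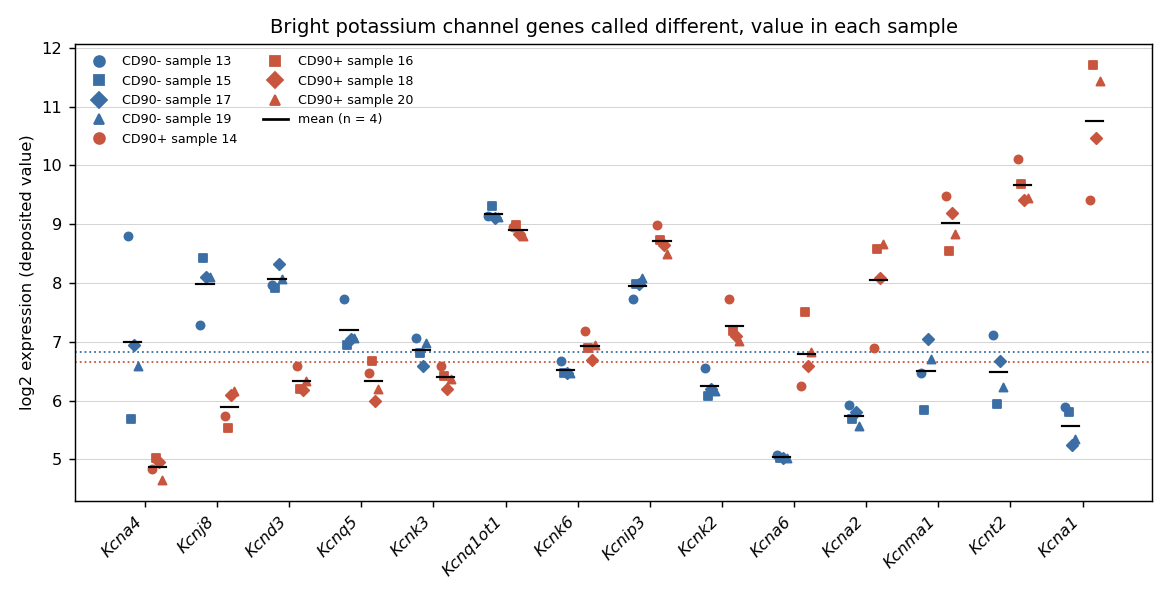
Log2 expression in each sample of the 14 bright potassium channel genes called different, ordered by difference; blue points are CD90- and red points CD90+ samples with 1 marker shape per sample, black bars are means, and dotted lines are the negative control medians of 6.82 (CD90-) and 6.65 (CD90+). In 13 of the 14 the populations do not overlap, the exception being Kcnk3.

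Kir channels hold the membrane near the potassium equilibrium, and Kcnj8 with the sulfonylurea receptor gene Abcc9 codes for the vascular type of ATP-sensitive channel. Kcnj8 was at 7.29, 8.43, 8.1 and 8.1 in CD90- samples 13, 15, 17 and 19 and at 5.73, 5.53, 6.1 and 6.17 in CD90+ samples 14, 16, 18 and 20. All CD90+ samples were below all CD90- samples, and the mean fell from 7.98 ± 0.49 to 5.88 ± 0.3 (difference -2.1, limma adjusted p = 0.00028). Abcc9, its neighbour in RefSeq's order of protein-coding genes, was at 11.1, 11.04, 11.18 and 11.08 in CD90- and at 8.9, 7.21, 7.6 and 7.22 in CD90+ samples 14, 16, 18 and 20. The pore gene and its partner fell together, Abcc9 with a difference of -3.37 (limma adjusted p = 0.000123), and sample 14 was the highest CD90+ sample for Abcc9 but not for Kcnj8. Both are also known from pericytes: of 6 pericyte genes measured, 3 were called higher (Rgs5, Mcam and Notch3) and 1 lower (Cspg4), 3 lay above the controls in each population, and the list's mean was 6.19 to 6.67 in CD90- and 6.63 to 6.68 in CD90+ samples. Their part in the Kcnj8 result was not tested. Kcnj11 and Abcc8, the pair known from the pancreatic type, lay under the filter.

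Of the other Kir genes, Kcnj5, a subunit opened by G proteins, was dim and rose from 5.22 ± 0.23 to 5.64 ± 0.19, a call close to the threshold (limma adjusted p = 0.0428) that was lost without any 1 of samples 14, 15, 16, 17, 19 and 20 (limma adjusted p up to 0.114), with no filter (0.0612) and after another quantile normalization (0.0744). Kcnj14 was tested but not called (limma adjusted p = 0.698). Kcnj10, the Kir gene known from glia, lay under the filter at 5.06 ± 0.2 and 5.55 ± 0.28, and with no filter its limma adjusted p was 0.0586.

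**Figure D5:**
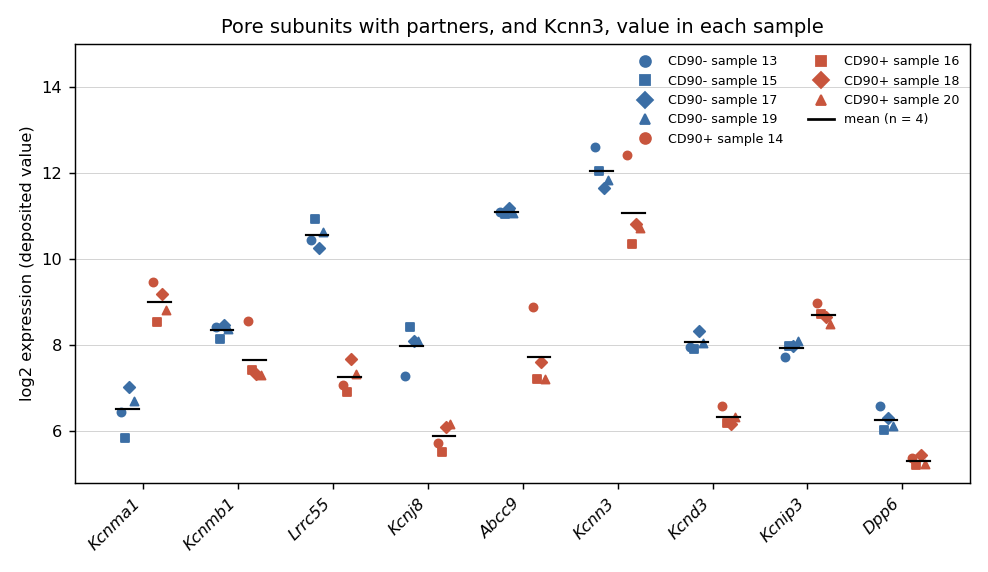
Log2 expression in each sample of channel pore genes and genes of their partners (Kcnma1 with Kcnmb1 and Lrrc55, Kcnj8 with Abcc9, Kcnd3 with Kcnip3 and Dpp6) and of Kcnn3; blue points are CD90- and red points CD90+ samples, and bars are means of 4. Kcnma1 is higher and Lrrc55 lower in CD90+ samples, Kcnj8 and Abcc9 are both lower, and for Kcnn3 and Kcnmb1 sample 14 lies with the CD90- samples.

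K2P channels carry the background potassium current. Kcnk2, a channel opened by membrane stretch and lipids, was at 6.55, 6.07, 6.2 and 6.16 in CD90- samples 13, 15, 17 and 19 and at 7.73, 7.19, 7.1 and 7.02 in CD90+ samples 14, 16, 18 and 20. The groups did not overlap, and the mean rose from 6.24 ± 0.21 to 7.26 ± 0.32 (difference 1.02, limma adjusted p = 0.002). Kcnk6, a weakly rectifying K2P gene, was at 6.67, 6.46, 6.47 and 6.46 in CD90- and at 7.19, 6.89, 6.69 and 6.94 in CD90+ samples 14, 16, 18 and 20. Its groups came within 0.02 of each other without overlap (difference 0.41, limma adjusted p = 0.0203), and the call was lost without any 1 of samples 15, 17, 19 and 20 (limma adjusted p up to 0.0579). Kcnk3, an acid-sensitive channel gene, was at 7.06, 6.8, 6.59 and 6.97 in CD90- and at 6.59, 6.42, 6.19 and 6.37 in CD90+ samples 14, 16, 18 and 20. It fell by 0.46 with overlapping groups (limma adjusted p = 0.0205) and lost its call without any 1 of samples 18, 19 and 20 (limma adjusted p up to 0.0606).

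Kcnk5, an acid-sensitive channel known from epithelia, was dim, at 6.19, 5.12, 5.44 and 5.16 in CD90- samples 13, 15, 17 and 19 and at 6.06, 6.72, 6.02 and 6.48 in CD90+ samples 14, 16, 18 and 20. Sample 13 overlapped the CD90+ samples, and the call (difference 0.84, limma adjusted p = 0.0367) was lost without any 1 of samples 15, 16, 17, 19 and 20 (limma adjusted p up to 0.0978). It was also lost with no filter, after another quantile normalization and with consecutive title numbers as a block (limma adjusted p = 0.0524, 0.0512 and 0.0718). The 7 measured epithelial genes, 0 of which limma called (all at unadjusted p of 0.407 or more, and all tested), had their highest list means in samples 13 and 20, at 9.29 and 9.22; 4 and 5 of the 7 lay above the controls in CD90- and CD90+ samples. Their part in the Kcnk5 result was not tested. Kcnk1, Kcnk4, Kcnk7 and Kcnk13 were dim, tested and not called.

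Kcnq1ot1, a long non-coding RNA that runs antisense to Kcnq1 and silences genes of an imprinted cluster, was bright in both populations. It was at 9.14, 9.3, 9.11 and 9.12 in CD90- samples 13, 15, 17 and 19 and at 8.95, 8.99, 8.83 and 8.8 in CD90+ samples 14, 16, 18 and 20. The difference of -0.27 was small but the groups did not overlap (limma adjusted p = 0.0229). It lost its call without sample 15, 18 or 20 (limma adjusted p up to 0.0692) and after another quantile normalization (limma adjusted p = 0.0612). No source used here states whether the deposited values tell the strands apart, so RNA of Kcnq1 and of Kcnq1ot1 may not be separated.

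The 13 dim members tested and not called had means between 5.39 and 6.06 and differences between -0.05 and 0.15. The 5 dim members called were Kcnk5, Kcne4, Kcns3, Kcnj5 and Kcng4. The 55 members under the filter had means between 3.13 and 5.55, and 41 of them differed by at most 0.1 between the populations. With no filter, where limma called 8.04% of all genes higher and 8.17% lower, 2 of the 55 were called, Kcnj12 higher (4.17 ± 0.18 and 4.55 ± 0.024, adjusted p = 0.0189) and Kcnh1 lower (5.24 ± 0.056 and 4.93 ± 0.083, adjusted p = 0.00962).

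Other genes of potassium transport were read from a list chosen with earlier results of these data known. Of 13 channel partner genes measured, 5 were tested, 3 of them lower (Abcc9, Lrrc55 and Dpp6) and 1 higher. The partner that rose was Adam22, a receptor in Kv1 complexes of axons, from 5.19 ± 0.11 to 5.96 ± 0.2, both below the controls (limma adjusted p = 0.000791). Of 11 pump and cotransporter genes measured of 15 listed, 7 were tested and 2 were called lower. Slc12a7, a potassium chloride cotransporter gene, fell from 8.75 ± 0.047 to 7.1 ± 0.18 with no overlap (limma adjusted p = 3.81e-06), and the related Slc12a4 fell by 0.35 (limma adjusted p = 0.0304). The sodium pump subunit gene Atp1b3 was at 12.37 ± 0.22 and 12.52 ± 0.094 (limma adjusted p = 0.351). Of 6 related cation channel genes measured, 3 were tested and 2 rose: Tmem38a by 0.57 and Tmem38b by 0.78, which code for potassium channels of the sarcoplasmic and endoplasmic reticulum (limma adjusted p = 0.00177 and 0.00134).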

How the data were processed

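The authors deposited log2 values, 1 per transcript cluster and array, made from 2 ng of amplified RNA per sample. Affymetrix Expression Console 1.1 and RMA were used per the submitters' processing notes; RMA corrects background, normalizes arrays by quantiles and summarises probes, which compresses low values, and no source used here states its settings. The table held 65956 clusters beside 6732 control rows, 5222 of them negative controls. Of the clusters, 31258 had 1 gene in the platform annotation, 1492 had more and 33206 had no name, with symbols updated through RefSeq's synonyms (GRCm38.p6). The highest-mean cluster stood for a gene.

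Genes reaching the median (5.36) in at least 4 of 8 samples were tested with limma 3.58.1 (lmFit, eBayes) in R 4.3.3, two-sided, with no block, and checked on simulated data. The replicates are samples; arrays, not depth, limit precision. Bright called members were named with all values, other members by means or counts. The members and lists were chosen with earlier results of these data known. Alternatives changed the filter, normalization, variance model, array weights, cluster choice, block and samples. Figures used matplotlib 3.10.9 in Python 3.11.15. Protein sequences were not used here.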

Additional observations from a re-analysis of the deposited data

Results flagged for a closer look

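In each population of 4, the gap between an extreme sample and the nearest other, divided by the whole range, was compared with Dixon's critical value for groups of 4, for the 37 tested members. Of 74 such groups 7 passed it, and chance flags about 1 in 20. The sample was 13 in 3 groups and 14 in 2.

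Kcnmb1 reached 8.56 in CD90+ sample 14, with samples 16, 18 and 20 at 7.3 to 7.43, and Kcnh2 was at 6.57 in the same sample, against 5.74 to 5.83. In CD90- sample 13, Kcnq5 was at 7.73 against 6.95 to 7.07, Kcnk6 at 6.67 against 6.46 to 6.47, and Kcna6 at 5.07 against 5.03 in the others. Kcnq1ot1 was at 9.3 in CD90- sample 15 against 9.11 to 9.14, and Kcne1l at 6.86 in CD90+ sample 20 against 7.13 to 7.16.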

How the results depend on the processing

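Of the 19 called members, 13 kept call and direction under every alternative run for them (Kcna1, Kcna2, Kcna6, Kcnd3, Kcne4, Kcng4, Kcnip3, Kcnj8, Kcnk2, Kcnma1, Kcnq5, Kcns3 and Kcnt2; the stricter filter left 15 members to test, so some had no value there). The other 6, Kcna4, Kcnj5, Kcnk3, Kcnk5, Kcnk6 and Kcnq1ot1, lost the call in at least 1, Kcnj5 and Kcnk5 in 8 each, and all 6 kept their direction. With the filter at the negative control median, 6 of 15 members were called higher and 4 lower. Of the 12202 genes tested there, 16.4% were called higher and 20.4% lower. The populations did not overlap in 10 of these 15 members. The share of all genes without overlap is not given for this filter. Whether 10 of 15 is unusual therefore cannot be read from the count. Leaving out single samples gave 4 to 9 members called lower, the lowest without sample 20, and 9 to 12 called higher. Of the 18 members not called, Kcnn3 and Kcnmb1 were called lower with array weights (adjusted p = 0.0154 and 0.00325), without sample 14 and without samples 13 and 14, and Kcnn3 also with consecutive title numbers as a block (adjusted p = 0.0261), a pairing that no label states; there Kcnk5 lost its call (adjusted p = 0.0718). The cause of these changes was not tested. All members had 1 cluster, and matching on updated symbols gave the same members. Signal over background limits what can be read for the 73 dim members.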
